A study of Rattus norvegicus with 25 samples.

Results

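The human Sar1 paralogs Sar1A and Sar1B were compared by their effects on RNA in McArdle-RH7777, a rat hepatoma line that assembles and secretes apoB lipoproteins. Of the 25 arrays of the study, 12 entered this comparison, chosen by the construct in their titles: 4 arrays of 1 cell line carrying human SAR1A and 8 arrays of 2 cell lines carrying wild-type human SAR1B, with 4 arrays a line. Both cDNAs carried a carboxyl-terminal FLAG tag and stood under a tetracycline-controlled promoter in cells that also held the tetracycline repressor, and all cells, controls included, were grown with blasticidin and Zeocin and received 1 µg/ml tetracycline for 24 h. Each line was expanded from a picked clone. The 2 control lines (5 arrays) and the 2 lines with Sar1B:H79G, a GTP-restricted form of Sar1B (8 arrays), are given only as reference levels, and the control arrays belong to another array series than the Sar1 arrays. Because Sar1A has 1 line, the paralog and the clone cannot be told apart. The study also found more recombinant Sar1 protein in Sar1A cells than in Sar1B cells, so the paralog and its amount cannot be told apart either.

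Sar1 is the small GTPase that starts the COPII coat at the endoplasmic reticulum (ER). Once loaded with GTP by its exchange factor, it inserts into the ER membrane, recruits the inner coat of Sec23 and Sec24 and then the outer coat of Sec13 and Sec31, and the coat takes secretory cargo toward the Golgi. Mammals carry the paralogs SAR1A and SAR1B, and inherited loss of SAR1B in humans causes a failure of intestinal chylomicron secretion. In hepatocytes the same route carries plasma proteins and apoB lipoproteins.

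The values were log2 signals with medians of 8.10 to 8.16 per array, and arrays were averaged per line. Arrays of a line correlated with each other at 0.991 to 0.998 across probe sets, those of Sar1A with Sar1B line 1 at 0.985 to 0.990 and with line 2 at 0.985 to 0.991. The 5′ minus 3′ signal of β-actin, a measure of RNA integrity, was -0.71 to -0.45 in Sar1A and -0.64 to -0.42 in Sar1B. The upper quartile of the signal was 9.38 to 9.43 on 1 of 4 Sar1A arrays and on 4 of 8 Sar1B arrays, 3 of them of line 2, against 9.25 to 9.29 on the others, and these 5 arrays are called wide below. Summed hepatocyte markers lay at 15.31 to 15.42 in Sar1A and at 15.27 to 15.63 in Sar1B on the log2 scale, and the lists of cholangiocyte, endothelial, leukocyte and fibroblast markers held 0 genes whose Sar1A arrays stood apart from all Sar1B arrays. Of the 6 hepatocyte markers 1 lay below all Sar1B arrays.

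The endogenous rat genes of both GTPases were examined first. The brightest probe set of Sar1a had log2 signals of 12.90, 13.09, 13.03 and 13.38 on the Sar1A arrays, 12.05, 12.002, 12.06 and 12.07 in Sar1B line 1 and 11.56, 11.37, 11.41 and 11.51 in line 2. All Sar1A arrays thus lay above all Sar1B arrays, by 1.35 on the log2 scale (SE 0.24, limma adjusted p = 0.28), with 11.39 in control and 12.88 in Sar1B:H79G. A second Sar1a probe set had 12.07 in Sar1A against 12.09 and 11.50 in the Sar1B lines, a difference of 0.27 (SE 0.23), and its arrays overlapped. Whether transcripts of the human transgenes hybridized to either rat probe set was not tested. The 10 nearest genes of Sar1a on chromosome 20 had median differences of Sar1A of 0.03 from Sar1B line 1 and 0.36 from line 2. What Sar1a shared with these neighbours was not tested. Sar1b had signals of 11.33, 11.04, 11.24 and 11.17 in Sar1A, and from 11.26 to 11.48 on the Sar1B arrays, a difference of -0.17 (SE 0.09, limma adjusted p = 0.96), so no probe set marked the SAR1B construct.

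Across the array, 1 of 31042 probe sets (0.00322%) was called between Sar1A and Sar1B at a Benjamini-Hochberg adjusted p under 0.05 in limma, with 2036 probe sets at an unadjusted p under 0.05. The called gene was Rab37, a Rab GTPase known from secretory granules. Its log2 signals were 10.84, 10.56, 10.64 and 10.60 on the Sar1A arrays, 7.83, 7.76, 7.87 and 7.88 in Sar1B line 1 and 7.91, 7.54, 7.88 and 7.88 in line 2. Rab37 rose in Sar1A by 2.84 on the log2 scale, or 7.18-fold (SE 0.09, 95% confidence interval 2.62 to 3.07, adjusted p = 0.0017). The 5 control arrays, at 7.82 to 8.02, and the 8 Sar1B:H79G arrays, at 7.83 to 8.15, lay beside the Sar1B arrays, so that the Sar1A line alone was high. The call was lost without the control lines (adjusted p = 0.058), which left 0 probe sets called (1917 at an unadjusted p under 0.05). Leaving out either control line alone gives this same test, because a group of 1 line adds no spread. It was also lost in a fit of the 3 Sar1A and Sar1B lines alone (adjusted p = 0.18). Without Sar1B line 1 Rab37 differed by 2.86, and without Sar1B line 2 by 2.83. Leaving out either Sar1B:H79G line left the difference unchanged and gave 1 and the same test.

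The size of the differences was set against the differences between lines that carry the same construct. Beyond 1 on the log2 scale were 95 probe sets (0.306%) between Sar1A and the mean of the Sar1B lines, 161 (0.519%) between Sar1A and Sar1B line 1 alone and 91 (0.293%) between Sar1A and line 2 alone. Between the 2 Sar1B lines there were 74 (0.238%), between the 2 Sar1B:H79G lines 43 (0.139%) and between the 2 control lines 16 (0.0515%). The median absolute difference over all probe sets was 0.078 and 0.083 between Sar1A and the Sar1B lines, 0.076 between the Sar1B lines, 0.085 between the Sar1B:H79G lines and 0.093 between the control lines. By this median, Sar1A stood slightly farther from the Sar1B lines than these from each other, and nearer than the paired lines of the other groups. The control means rest on 2 and 3 arrays, against 4 for every other line, and the control pair had the fewest differences beyond 1. The 95th percentile of the absolute difference was 0.403 and 0.382 between Sar1A and the Sar1B lines, 0.358 between the Sar1B lines, 0.397 between the Sar1B:H79G lines and 0.320 between the control lines. Of 14217 genes, each represented by its brightest probe set, 28 (0.197%) were higher and 40 (0.281%) lower in Sar1A by more than 1, and 37 of these 68 differed by more than 1 from each Sar1B line.

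**Figure D1:**
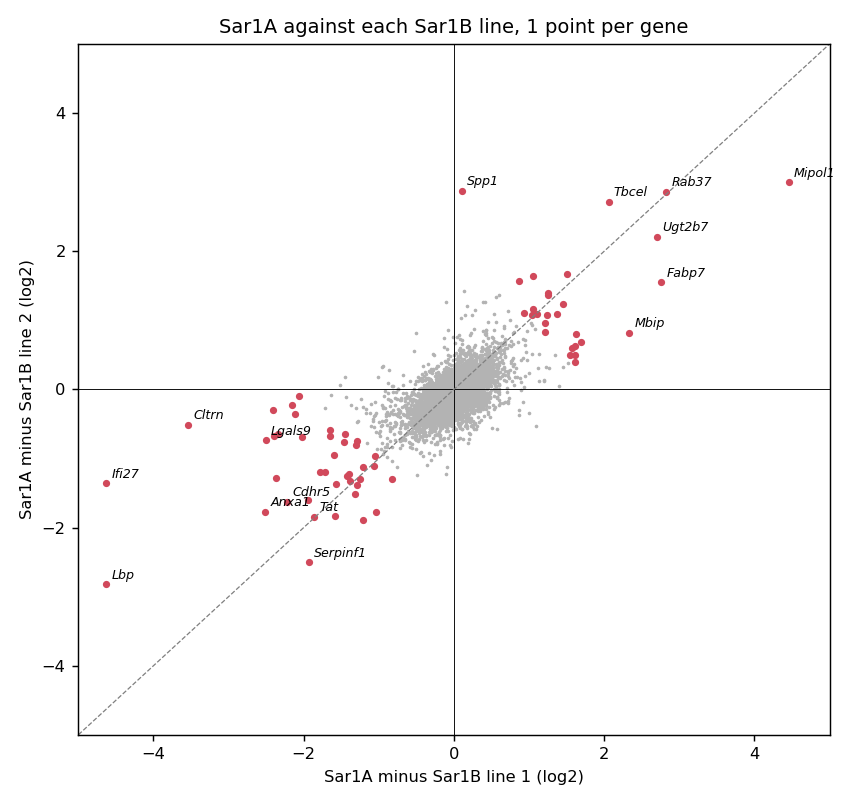
Log2 difference of Sar1A from Sar1B line 1 (x axis) and from Sar1B line 2 (y axis), with 1 point per gene and the 68 genes beyond 1 from the mean of both lines in red. Rab37 lies on the diagonal, at 2.83 and 2.86, whereas Lbp, Ifi27, Cltrn and Mipol1 lie off it, because the 2 Sar1B lines differ from each other, and Spp1 differs from line 2 only.

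Among bright genes whose arrays did not overlap, the largest differences above Sar1B after Rab37 were not called, and they are given by their values. Mipol1, a coiled-coil protein gene, had 12.25, 12.07, 12.03 and 12.14 in Sar1A, 7.47 to 7.90 in Sar1B line 1 and 8.86 to 9.27 in line 2, a difference of 3.73 (SE 0.64). Here the control lines (11.48) lay near Sar1A, and Sar1B:H79G (9.76) lay between. Ugt2b7, a glucuronosyltransferase of a family with near-identical copies, had 11.69, 11.58, 11.63 and 11.59 in Sar1A, 8.80 to 9.02 in line 1 and 9.17 to 9.62 in line 2, a difference of 2.46 (SE 0.56). Control lay at 10.90 and Sar1B:H79G at 11.69, so that the Sar1B lines were the low ones. Tbcel, a relative of a tubulin-folding cofactor, had 10.90 to 11.39 in Sar1A and 8.18 to 9.17 in Sar1B, a difference of 2.39 (SE 0.34), and its second probe set differed by 0.71.

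Fabp7, a fatty acid binding protein best known from brain, had 13.14, 13.11, 13.25 and 13.16 in Sar1A, 10.25 to 10.49 in Sar1B line 1 and 11.31 to 11.79 in line 2 (difference 2.16, SE 0.57). Control, at 13.34, was as high as Sar1A, while Sar1B:H79G, at 11.33, lay near the Sar1B lines. Tesc, which encodes the calcium-binding protein tescalcin, had 9.39 to 9.69 in Sar1A and 7.79 to 8.11 in Sar1B (difference 1.59, SE 0.19), with 8.20 in control and 8.03 in Sar1B:H79G. Tesc thus shared with Rab37 a high level in Sar1A alone. Akr1c19, an aldo-keto reductase, had 11.76, 11.26, 11.34 and 11.35 in Sar1A and 9.80 to 10.23 in Sar1B (difference 1.31, SE 0.14). Control was again at the Sar1A level (11.49), and Sar1B:H79G (10.00) was at the Sar1B level. Slc7a11, the cystine importer used for glutathione synthesis, had 11.33 to 11.56 in Sar1A, 10.57 to 10.66 in line 1 and 9.80 to 9.97 in line 2 (difference 1.22, SE 0.45), and Sar1B:H79G was higher than all of these, at 12.64. The remaining genes of this set were Mbip (1.58), Scpep1 (1.22) and Tspan13 (1.22). Of the 12 genes with the largest positive differences, Sar1a included, the control mean was nearer to Sar1A in 7 and nearer to Sar1B in 5, and the Sar1B:H79G mean was nearer to Sar1A in 5 and to Sar1B in 7.

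**Figure D2:**
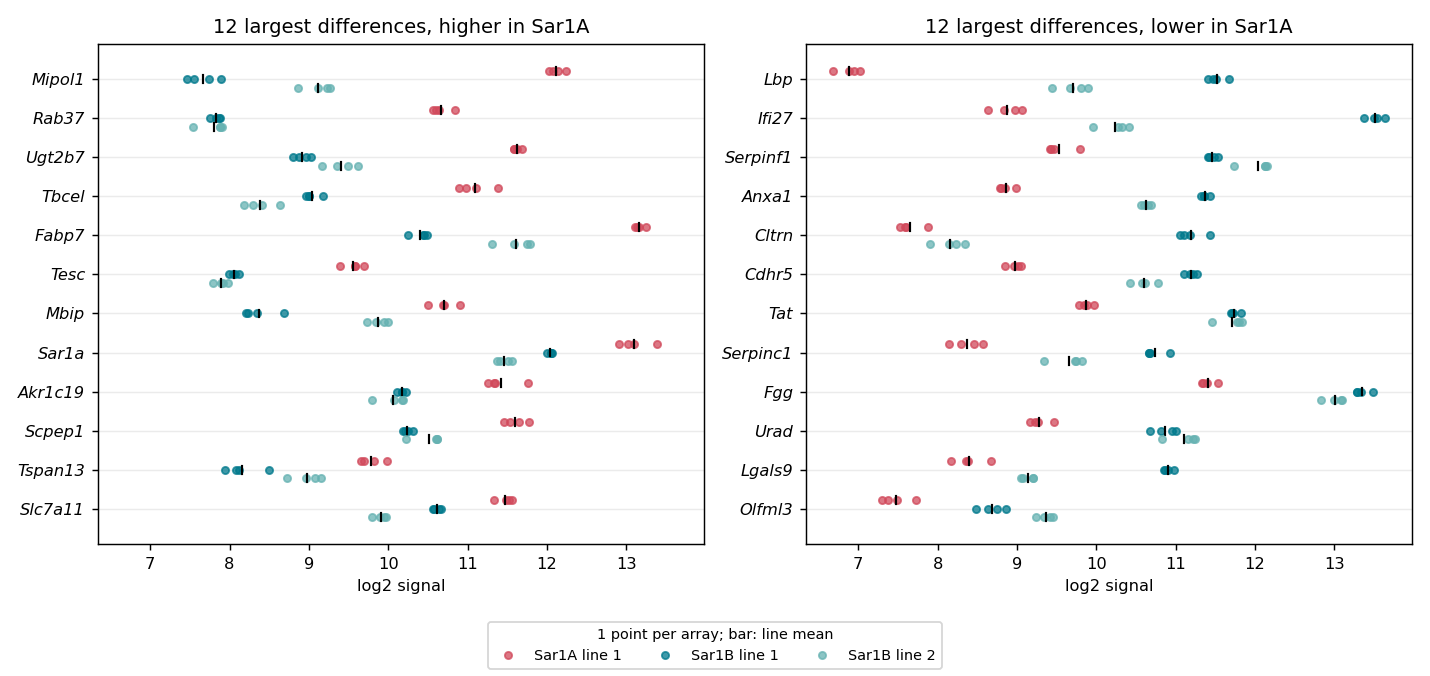
Log2 signal on each Sar1A and Sar1B array (x axis) for the 12 bright genes with the largest differences in each direction whose Sar1A arrays do not overlap the Sar1B arrays (y axis), with 1 point per array and a bar at each line mean. The Sar1B lines sit close together for Rab37 and Tat and far apart for Ifi27 (13.51 and 10.24) and Cltrn (11.19 and 8.16).

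Of the 12 genes with the largest differences below Sar1B, 4 encode secreted plasma proteins on the list of that name (Lbp, Serpinf1, Serpinc1 and Fgg). Lbp, the plasma protein that presents bacterial lipopolysaccharide, had 6.88, 7.03, 6.95 and 6.69 in Sar1A, 11.51, 11.48, 11.41 and 11.68 in Sar1B line 1 and 9.67, 9.44, 9.81 and 9.90 in line 2. The difference of -3.73 had an SE of 1.35, since the Sar1B lines differed from each other by 1.81, and control stood at 7.89. Serpinf1, which encodes pigment epithelium-derived factor, had 9.42 to 9.80 in Sar1A and 11.41 to 12.16 in Sar1B (difference -2.22, SE 0.38). Control (8.86) lay below Sar1A, and Sar1B:H79G (11.53) lay near the Sar1B lines. Serpinc1, the gene of antithrombin, had 8.58, 8.14, 8.30 and 8.46 in Sar1A against 9.33 to 10.93 in Sar1B (difference -1.83, SE 0.46). The γ chain of fibrinogen, Fgg, had 11.54, 11.33, 11.35 and 11.40 in Sar1A, 13.28 to 13.49 in line 1 and 12.84 to 13.10 in line 2 (difference -1.77, SE 0.40). The other fibrinogen chains differed by less, at -0.42 for Fga and 0.20 for Fgb.

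Of 41 measured genes on the list of secreted plasma proteins, 10 had all Sar1A arrays below all Sar1B arrays and 1, Ambp, above, against 5.31% below and 4.85% above over the 14217 genes. The median difference of the list was -0.03, beside -0.01 over all genes, so the list held a few large differences and no common shift. The 6 hepatocyte markers had a median difference of -0.17, with -0.01 against line 1 and -0.46 against line 2, and their part in these values was not tested. Albumin (Alb) differed by -0.31 (SE 0.54) and transthyretin (Ttr) by -0.03, with overlapping arrays for both. Further members without overlap were C4bpa (-1.31), F10 (-0.66), Serpinf2 (-0.44), Gc (-0.44) and Serpina1 (-0.32). None was called, and the list was chosen with earlier results of these arrays known.

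Genes of amino acid and urate breakdown were also among those with lower values in the Sar1A line. Tat, the first enzyme of tyrosine breakdown, had 9.98, 9.89, 9.78 and 9.85 in Sar1A, 11.70, 11.71, 11.72 and 11.82 in Sar1B line 1 and 11.84, 11.46, 11.78 and 11.80 in line 2. Its difference was -1.85 (SE 0.27, limma adjusted p = 0.22), and control (10.90) and Sar1B:H79G (11.30) lay between. Leaving out either Sar1B:H79G line left the Tat difference unchanged and gave 1 and the same test, so it was no separate check. Urad, an enzyme of urate breakdown in rodents, had 9.47, 9.23, 9.26 and 9.17 in Sar1A and 10.68 to 11.24 in Sar1B (difference -1.71, SE 0.13, limma adjusted p = 0.084). It differed by -1.58 from Sar1B line 1 and by -1.83 from line 2. Control was at 11.29 and Sar1B:H79G at 9.01, so that Urad grouped Sar1A with Sar1B:H79G. Otc, of the urea cycle, differed by -0.77 without overlap, by -1.07 from line 1 and -0.46 from line 2. Of 37 measured genes for amino acid breakdown and the urea cycle, 6 were below without overlap and 1, Kmo, above (0.70), against 5.31% and 4.85% of all genes, and the median was -0.01.

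Anxa1, which encodes the membrane-binding annexin A1, had 8.99, 8.79, 8.85 and 8.80 in Sar1A and 10.56 to 11.44 in Sar1B (difference -2.14, SE 0.34), while control (8.84) and Sar1B:H79G (8.47) were at the Sar1A level. The Sar1B lines alone were high for this gene. Cdhr5, a cadherin of the microvillus border, differed by -1.93 (SE 0.40) and Olfml3, a secreted matrix protein gene, by -1.55 (SE 0.30). Cltrn, collectrin, had 7.53 to 7.87 in Sar1A and 7.90 to 11.43 in Sar1B (difference -2.03, SE 1.18), that is -3.55 from line 1 and -0.51 from line 2. Of the 12 genes with the largest negative differences, the control mean was nearer to Sar1A in 4 and to Sar1B in 8, and the Sar1B:H79G mean was nearer to Sar1A in 7 and to Sar1B in 5.

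Among the 31 lists, genes of the interferon response had the lowest median difference from the mean of both Sar1B lines and from line 1. Against line 2 the interferon list stood at -0.11. Lower there were fatty acid oxidation (-0.29), apoB lipoprotein assembly (-0.24), ER-Golgi SNAREs and tethers (-0.14) and cell cycle genes (-0.13). Interferon genes are switched on by STAT and IRF transcription factors, which bind a sequence of repeated GAAA blocks, the interferon-stimulated response element. Isg15, a ubiquitin-like modifier, had 9.65, 9.54, 9.54 and 9.51 in Sar1A, 11.86, 11.95, 11.94 and 11.88 in Sar1B line 1 and 10.31, 9.97, 10.26 and 10.29 in line 2 (difference -1.50, SE 0.62). Irf7, a transcription factor that amplifies the response, had 8.31, 8.28, 8.19 and 8.34 in Sar1A, 10.59, 10.76, 10.62 and 10.73 in line 1 and 8.95, 8.87, 9.01 and 8.99 in line 2 (difference -1.53, SE 0.61). Control stood at 8.55 for Irf7 and 10.44 for Isg15. Cxcl10, a chemokine, had 9.77, 9.59, 9.59 and 9.64 in Sar1A, 11.29 to 11.42 in line 1 and 10.69 to 10.95 in line 2 (difference -1.46, SE 0.22). Among the largest differences, 2 genes of the response lay outside the list, Ifi27 and Lgals9, galectin-9. In Sar1A, Sar1B line 1 and Sar1B line 2, Ifi27 had 8.88, 13.51 and 10.24 and Lgals9 8.39, 10.90 and 9.13. Both were chosen as lower in Sar1A without overlap, so their lower Sar1A level is no separate support. Control and Sar1B:H79G lay above Sar1B line 2 for both, at 11.25 and 12.46 for Ifi27 and at 9.47 and 9.18 for Lgals9.

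Of 33 measured genes for the interferon response and antigen presentation, 11 had all Sar1A arrays below all Sar1B arrays and 0 above, against 5.31% and 4.85% of all genes. The median difference was -0.23 on the log2 scale, beside -0.01 over all genes, and it was -0.33 against Sar1B line 1 and -0.11 against line 2. Members without overlap included Mx2 (-1.23), a dynamin-like antiviral protein gene, the immunoproteasome subunits Psmb9 (-0.94) and Psmb10 (-0.54), Irf9 (-0.73) and the peptide-loading gene Tapbp (-0.63). By contrast Ifit1 (0.01), Oas1a (0.01), Ifitm3 (0.04) and Psmb8 (-0.02) differed little. 0 members were called by limma, 11 had an unadjusted p under 0.05, and the list was chosen with earlier results known. Irf7 differed by -2.39 from Sar1B line 1 and by -0.67 from line 2.

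**Figure D3:**
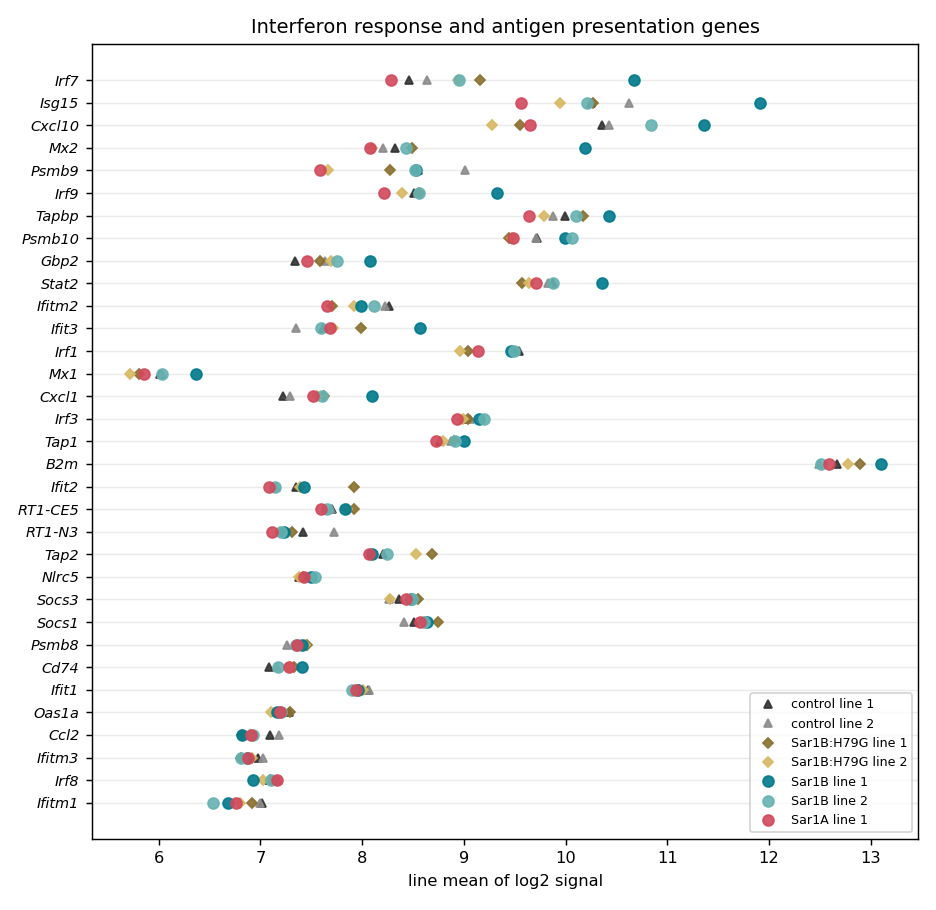
Line means of log2 signal (x axis) for the 33 measured genes of the interferon response and antigen presentation (y axis, ordered by the difference of Sar1A from Sar1B), with 1 point per cell line. For Irf7, Isg15 and Mx2 Sar1B line 1 stands far above the other lines, whereas Cxcl10 is higher in both Sar1B lines than in Sar1A.

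Promoter sequences show where such blocks lie in these genes. In RefSeq windows on the rat build GRCr8, which run from upstream of each transcription start to a short way past it, the motif GAAA, any 2 bases, GAAA on either strand was found in 3.77% of 27457 windows of 300 bases and in 15 of the 26 list genes that matched a window. Of the 11 genes without overlap, 9 had a window and 7 of these held the motif. The list genes with the motif had a median difference of -0.23 and those without it -0.33, so that its presence did not sort the list. The stretches around the motif, whose letters are in capitals on the strand shown, are given for 4 of the genes that were lower in every Sar1A array.
Irf7 (chr1:205800063-205800112, minus strand): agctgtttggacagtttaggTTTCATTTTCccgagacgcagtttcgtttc
Cxcl10 (chr14:15988816-15988852, plus strand): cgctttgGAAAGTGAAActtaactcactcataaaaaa
Tapbp (chr20:4967868-4967923, minus strand): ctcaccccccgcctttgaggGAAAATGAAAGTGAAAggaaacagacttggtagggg
Gbp2 (chr2:234005676-234005725, plus strand): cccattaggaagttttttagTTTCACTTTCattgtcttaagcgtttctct
Tapbp carried 2 overlapping matches and the others 1 each, on the opposite strand for Irf7 and Gbp2. Tapbp differed by -0.63 and Gbp2, a guanylate-binding GTPase gene, by -0.46.

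Of 23 measured genes of apoB lipoprotein assembly, 16 had a Sar1A mean below both Sar1B lines and 3 above both, beside 5420 and 4467 of all 14217 genes, and 0 were called. Mttp, which encodes the microsomal protein that loads triglyceride onto apoB, had 9.99, 9.71, 9.73 and 9.68 in Sar1A, 11.10, 11.16, 11.21 and 11.32 in Sar1B line 1 and 10.90 to 11.20 in line 2. The difference was -1.33 (SE 0.45, limma adjusted p = 0.64), a 2.52-fold lower signal, with control at 10.72 and Sar1B:H79G at 8.94. Mttp thus lay below both Sar1B and control in the Sar1A line. Apob had 12.01, 11.72, 11.72 and 11.71 in Sar1A, 11.77 to 11.94 in line 1 and 12.35 to 12.69 in line 2 (difference -0.43, SE 0.42), so that only line 2 stood apart, and a second, dimmer Apob probe set differed by -0.00. On this list 5 were below without overlap, against 5.31% of all genes, namely Mttp, Apoc1 (-1.09), Apom (-0.69), Apoc3 (-0.55) and Lcat (-0.52), and 1, the receptor gene Lrp1 (0.26), above. The median difference was -0.17, with -0.05 against line 1 and -0.24 against line 2. It was -0.14 without the wide arrays and -0.19 with only those.

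On the list of triglyceride synthesis, lipid droplets and lipases, 4 of 30 measured genes were below without overlap, 1 was above (Lipa, the lysosomal acid lipase, 0.41) and 25 overlapped, against 5.31% below and 4.85% above over all genes, and the median difference was -0.02. Cidec, a lipid droplet fusion protein gene, had 7.51 to 7.81 in Sar1A and 8.50 to 9.46 in Sar1B (difference -1.27, SE 0.28), and Dgat2, the last enzyme of triglyceride synthesis, 10.20 to 10.45 against 10.84 to 11.19 (difference -0.72, SE 0.11). The droplet coat gene Plin2 differed by -0.55 and Lpin3, a lipin gene, by -0.20. Of 21 genes of fatty acid oxidation, 5 were below and 0 above without overlap, with a median of -0.20 (-0.13 against line 1, -0.29 against line 2), and the largest difference, -0.36 for Etfdh, had overlapping arrays. Without the wide arrays this median was -0.14. Cholesterol synthesis genes showed no common direction, with 2 of 18 above (Lss, 0.25, and Msmo1, 0.40), 1 below (Nsdhl, -0.28) and a median of -0.04. Of the other genes the study names, Dhcr7 differed by -0.32, Acsl5 by -0.18, Srebf2 by 0.09, Scap by -0.03 and Atf6 by 0.04, all with overlapping arrays.

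Apart from Sar1a, genes of the COPII and COPI coats, cargo receptors and ER-Golgi SNAREs and tethers differed by less than 1 on the log2 scale. Sec13, of the outer COPII coat, had 11.42, 11.29, 11.35 and 11.39 in Sar1A, 11.81, 11.80, 11.89 and 11.78 in Sar1B line 1 and 11.88, 11.74, 11.94 and 11.88 in line 2. This was a difference of -0.48 (SE 0.11, limma adjusted p = 0.42), with Sar1A at the control level (11.38) and both Sar1B lines above it. Its partner Sec31a differed by 0.16 (SE 0.14) with overlapping arrays. Of 13 measured genes on the list of the COPII coat and ER exit sites, 4 were below without overlap (Tango2, Sec13, Sec16b and Klhl12, at -0.49 to -0.39) and 0 above, against 5.31% and 4.85% of all genes, and the median was -0.09. Tango2 was counted by its list entry, and a role of it in the coat was not tested. Sec16b was dim, at 7.58 in Sar1A and 8.01 and 7.99 in the Sar1B lines. For the exchange factor gene Preb the difference was -0.24 (SE 0.27), and for Mia2, a cargo receptor partner at ER exit sites, 0.48 (SE 0.34), with overlap for both. COPI genes had a median of -0.06 with 1 of 15 below (6.67%), and genes of ER-Golgi SNAREs and tethers one of -0.08 with 4 of 30 below (13.3%) and 2 above (6.67%).

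Among 36 Rab GTPases, Rab37 alone lay above without overlap, and 3 lay below, shares of 2.78% and 8.33% beside 4.85% and 5.31% of all genes. Rab7a, of late endosomes, had 11.07, 10.90, 10.94 and 10.81 in Sar1A and 11.17 to 11.88 in Sar1B (difference -0.70, SE 0.17), Rab4a differed by -0.32 and Rab13 by -0.25. The other 32 Rab genes overlapped. The median of the family was -0.04.

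A few members of the stress response lists stood higher in Sar1A. Over all genes, 4.85% lay above and 5.31% below without overlap. Of 24 genes of the integrated stress response, in which ATF4 drives amino acid supply, 5 (20.8%) were above without overlap. These were Slc7a11, Cebpb (0.50), Atf4 (0.38), Trib3 (0.31) and Slc3a2 (0.28), and 1 (4.17%), Chac1 (-0.28), was below. The median was 0.03, and Ddit3 (0.24) and Asns (0.22) overlapped. On the list of NRF2 and glutathione genes, 3 of 28 (10.7%) were above, namely Ggt1 (0.47), Gclm (0.46) and Cat (0.27). There 1 (3.57%) was below (Gss, -0.36), and the median was 0.10. Genes of the unfolded protein response had 1 above (3.57%) and 3 below (10.7%) of 28, with a median of 0.01. The 25 cytosolic ribosomal protein genes had a median of 0.11, with 21 above both Sar1B lines, 0 without overlap and -0.03 when only the wide arrays were used. Transcription factors of the liver split, with Cebpa at 0.67, Foxa2 at -0.49 and Foxa3 at -0.45.

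**Figure D4:**
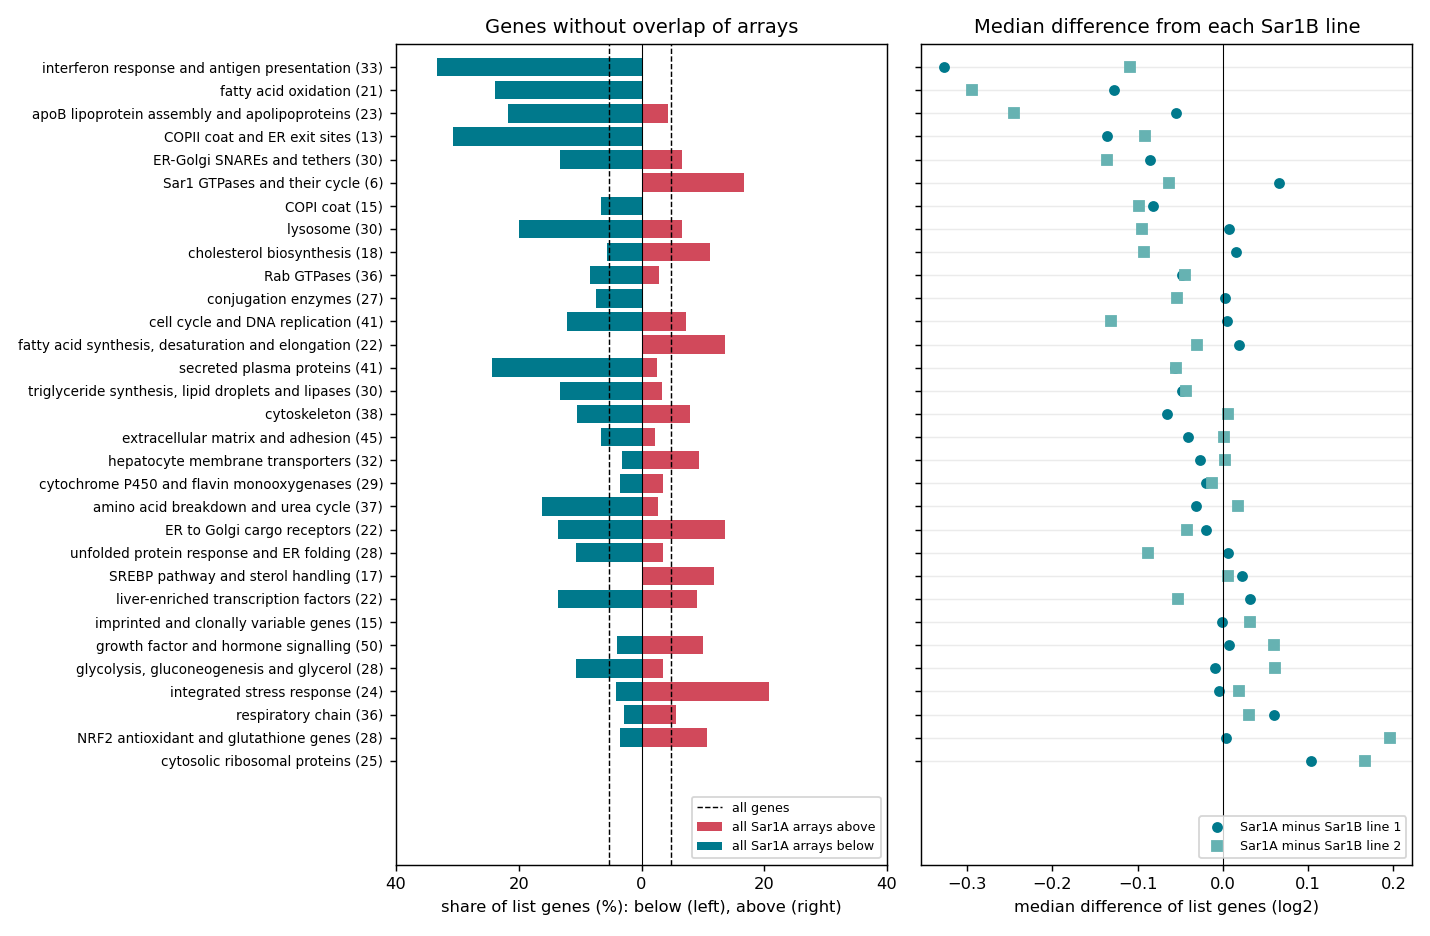
Left, share of the measured genes of each list whose 4 Sar1A arrays all lie below (left of 0) or above (right of 0) the 8 Sar1B arrays, with dashed lines at the shares over all genes (5.31% and 4.85%). Right, median log2 difference of each list from each Sar1B line, which is lowest for the interferon list against line 1 (-0.33). Numbers in brackets count measured genes.

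Differences also ran along the chromosomes. When 9398 genes above the median signal were placed in the gene order of the rat reference and a running median of 11 neighbours was taken, 3 stretches with 61 genes (0.649%) stood more than 0.3 above both Sar1B lines and 7 stretches with 77 genes (0.819%) more than 0.3 below both. This rule was chosen after the values were seen. On chromosome 6, 18 genes from Egln3 to Mipol1 had median differences of 1.43 from Sar1B line 1 and 0.50 from line 2, and 17 of them had no overlap of arrays. In this stretch Sar1A lay 0.14 and the Sar1B:H79G lines 0.16 and 0.13 above the control mean, while Sar1B line 1 lay at -1.30 and line 2 at -0.29, so that the Sar1B lines were the low ones. It held Mipol1, Mbip, Baz1a, Nfkbia, Psma6 and Srp54a.

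On chromosome 10 the Sar1A line was the one that stood apart. There, 26 genes from Ints2 to C10h17orf67, Rps6kb1, Ptrh2 and Scpep1 among them, had medians of 0.51 and 0.43 against the Sar1B lines, and lay 0.44 above the control mean in Sar1A, -0.05 and 0.02 in Sar1B and -0.26 and 0.01 in Sar1B:H79G. Another 17 genes from Nherf1 to Caskin2, with Grb2, Nup85 and Mrps7, had medians of 0.64 and 0.57, with 0.70 above control in Sar1A, 0.06 and 0.04 in Sar1B and 0.15 in both Sar1B:H79G lines. Of these 17 genes, 16 had no overlap of arrays. Rab37 lies directly before Nherf1 in the gene order, at the edge of this stretch, and its own difference of 2.84 was larger than any inside it (at most 1.08). Among the placed genes above the median signal, 11 of 25 beyond 1 above Sar1B lay in these 3 stretches. Of those beyond 1 below Sar1B, 1 of 35, Tat, lay in a lower stretch. The same differences define the stretches, so these counts describe them and are no separate support.

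The lower stretches were shallower and lay on chromosomes 4, 5 and 19. The longest held 25 genes from Gng12 to Retsat on chromosome 4, with medians of -0.42 and -0.40, 16 genes without overlap, and levels against control of -0.00 in Sar1A, 0.40 and 0.37 in the Sar1B lines and -0.08 and 0.05 in Sar1B:H79G. Both Sar1B lines were the high ones here. Over all 297 placed genes of chromosome 19 the median difference was -0.20, and it was -0.18 against line 1 and -0.20 against line 2, whereas that of chromosome 20 was 0.14. Without the wide arrays 9 genes lay in lower stretches, and with only those arrays 12. The same 25 genes of chromosome 4 then had medians of -0.46 and -0.30, and of -0.34 and -0.32. Their direction held while the count of genes in lower stretches did not. These genes were chosen by their differences on the same arrays, so their direction is no separate check. Against 1 Sar1B line at a time, Sar1A had 146 genes in higher and 124 in lower stretches for line 1, and 117 and 190 for line 2. Between the 2 Sar1B lines 226 genes (2.40%) lay in stretches where line 1 was lower and 25 (0.266%) where it was higher, between the Sar1B:H79G lines 64 and 39, and between the control lines 25 and 20. DNA copy number was not part of these data, and a cause of the stretches was not tested.

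**Figure D5:**
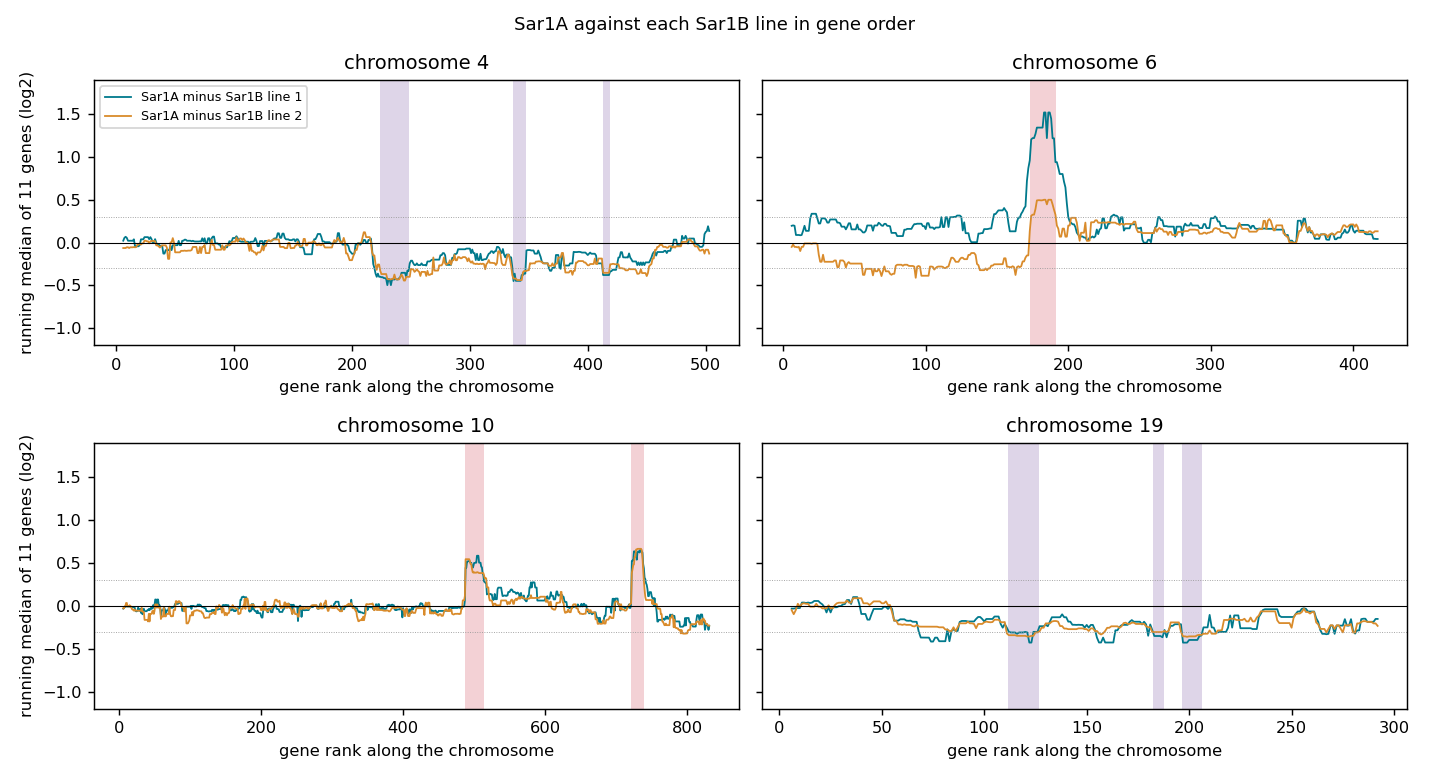
Running median over 11 neighbouring genes of the log2 difference of Sar1A from Sar1B line 1 and from line 2 (y axis), by gene rank along 4 chromosomes (x axis), with stretches beyond 0.3 against both lines shaded red where Sar1A is higher and purple where it is lower. Chromosome 10 has 2 narrow stretches in which both curves stand above 0.3, chromosome 6 a stretch where line 1 and line 2 differ (1.43 and 0.50), and chromosome 19 lies below 0 over most of its length.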

How the data were processed

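RNA of 7 cell lines was hybridized to 25 Affymetrix rat arrays. The authors scaled the arrays with loess and MAS 5 in CARMAweb (version not given in the sources used here), so a shift of all genes cannot be seen. The deposited values are log2 signals, with the base inferred from their range, and carry no detection calls. Of 31099 probe sets, 57 array controls were left out. Of the rest, 20826 had 1 symbol, 436 several and 9780 none, which left 14217 genes, each taken at the probe set with the highest mean.

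Per the methods, arrays of a line are technical replicates, so line means entered the test. Means of all 7 lines were fitted in R 4.3.3 by limma 3.58.1 with 4 group terms (3 residual and 3.16 prior degrees of freedom), and p-values were adjusted by Benjamini-Hochberg over 31042 probe sets. Sar1A has 1 line, whose spread was taken from the other groups, and p-values measure only the spread between these clones. SE are those of limma. Arrays that do not overlap (all 4 Sar1A arrays on one side of all 8 Sar1B arrays) describe technical replicates and are no test between paralogs.

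Named genes were the 12 largest differences in each direction among genes with 1 symbol, above the median signal and without overlap (called ones first), up to 3 members of each list with the largest differences and the genes the study names, and not all of them are printed. The comparison, the 31 gene lists and the 6 marker lists were chosen with earlier results of these data known, and further list members were named after their values were seen. Gene order (14167 genes placed) and promoter windows came from RefSeq on GRCr8.

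Alternatives treated arrays as replicates, took the line as a random block (statmod 1.5.0), changed the scaling, the groups fitted, the eBayes options, the filter on dim probe sets or the threshold, averaged the probe sets of a gene, or left out each line in turn. Settings without or with only the 5 wide arrays, and other windows of neighbouring genes, were chosen after seeing the data.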

Additional observations from a re-analysis of the deposited data

Results flagged for a closer look

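In 11 of 105 sets of 4 arrays (the genes with the largest differences and the study's genes, in the Sar1A line and both Sar1B lines), 1 array stood far from the other 3, where chance flags about 1 in 20. In all 11 it was the array whose spread differed from that of the other arrays of its line. Array 1 of Sar1A was the highest for Serpinf1 (9.80, next 9.47), Apob (12.01, next 11.72), Mttp (9.99, next 9.73) and Scap (10.44, next 10.26). Array 2 of Sar1B line 2 was the lowest for Rab37 (7.54, next 7.88), Scpep1 (10.23, next 10.61), Serpinf1 (11.74, next 12.12) and Tat (11.46, next 11.78). Array 4 of Sar1B line 1 was the highest for Tat (11.82, next 11.72), Serpinc1 (10.93, next 10.68) and Sar1b (11.39, next 11.29). The part of the array spread in these values was not tested beyond the fits without and with only the wide arrays, in which Rab37 differed by 2.93 and 2.95.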

How the results depend on the processing

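With each array as a replicate 3212 probe sets were called, and with the line as a random block 1191 (correlation 0.27 within a line), counts that rest on technical replicates. With an eBayes trend 8 were called, without the wide arrays 2, and 0 without the control lines (1917 at an unadjusted p under 0.05), in a fit of the 3 Sar1A and Sar1B lines alone (2366) and at the stricter threshold the study names (2036). Leaving out 1 line gave 0 to 26 called probe sets, and 91 to 161 beyond 1 on the log2 scale. The adjusted p of Rab37 lay between 3.1e-21 and 0.18 over the alternatives. Genes in stretches above Sar1B numbered 98 with only the wide arrays, and those in stretches below it 51 with a window of 21 genes, 35 with dim genes included, 9 without the wide arrays and 12 with only those. The 12 largest differences in each direction kept their sign in all 18 alternatives run for each gene. Several of these alternatives change only the spread and not the difference. These genes were also chosen for arrays that do not overlap, so leaving out lines or arrays could not turn their sign. Their constant sign is therefore no separate support. Of the other named genes, the sign turned in several. Among them were Sec31a with only the wide arrays (-0.13) and Scap without the wide arrays (0.070) and with only those (0.047). With a Sar1B line left out it turned for Preb (-0.55 to 0.076) and Cyp1a1 (-0.72 to 0.053). Close to 0 it also turned for Afp (-0.0008 from line 2), H19 (-0.0006 from line 1) and Ptprc (-0.005 from line 1). No paired analysis was possible because the single Sar1A line carries no line number to pair with a Sar1B line. The arrays' signal over background is unknown, as no detection calls were used.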

Other observations

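Outside the lists, further genes differed by more than 1 from Sar1B without overlap of arrays. Myof, a membrane repair protein gene, had 8.61 in Sar1A and 9.86 and 9.92 in the Sar1B lines, with the second-lowest adjusted p of all genes (limma, 0.076). Pdk3, a kinase that restrains pyruvate oxidation, had 10.32 against 11.61 and 11.71, and C8a, of the terminal complement complex, 9.22 against 10.43 and 10.34. Bambi, a decoy receptor of TGF-β signalling, had 12.49 against 11.45 and 11.41, with 11.35 in control and 10.75 in Sar1B:H79G. Car2, a carbonic anhydrase gene, had 13.42 against 12.31 and 12.32. By contrast Spp1, the gene of osteopontin and a member of the extracellular matrix list, had overlapping arrays, with 12.61 in Sar1A, 12.50 in Sar1B line 1 and 9.73 in line 2, so that its mean difference of 1.49 came from line 2. These genes were chosen after their values were seen.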
